A study of Mus musculus with 2 samples.

Results

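The genes described are 10 small cytoskeletal, lectin and calcium-binding genes of activated T cells, the galectins Lgals1 and Lgals3, the S100 genes S100a4, S100a6, S100a10 and S100a11, the annexins Anxa1 and Anxa2, the intermediate filament gene Vim and the LIM domain gene Crip1. They are 10 of the 31053 mouse genes counted. The members were chosen by their summed levels in the T cells of this same pool, across CD8+ T cells split by Gzmb, clone size and tumor tag and across CD4+ T cell types, so every level and ratio below is a description and none was tested. TCR-β+ T cells were sorted on day 9 from B16 melanoma and from B16–IL-33 tumors, a B16 line made to release the alarmin IL-33, both grown in C57BL/6J mice without further treatment. The cells were labelled with 4 hashtag antibodies (B16_1, B16_2, B16IL33_1 and B16IL33_2) and pooled, and the pool gave 1 5′ gene expression library, 1 hashtag library and 1 T cell receptor (TCR) library. There is therefore 1 library and no replicate, and what the numbers 1 and 2 of a tag stand for is not given in the sources used here.

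Galectins are lectins that bind β-galactosides on cell surface glycoproteins. Galectin-1, encoded by Lgals1, can cross-link receptors on T cells and trigger their death, and galectin-3, encoded by Lgals3, forms lattices that hold T cell receptors and is also abundant in macrophages. S100 proteins are small calcium sensors with EF hands. S100A4 binds nonmuscle myosin, S100A10 pairs with annexin A2, and S100A11 pairs with annexin A1. Annexins bind membrane phospholipids when calcium rises, and annexin A1 is known as an anti-inflammatory ligand of formyl peptide receptors. Vimentin is the intermediate filament of lymphocytes and mesenchymal cells. Several of these genes are raised in effector and memory T cells over naive T cells.

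The annotation (GENCODE vM21, GRCm38) places S100a4 (ENSMUSG00000001020) on chromosome 3 from 90603771 to 90606045 and S100a6 (ENSMUSG00000001025) from 90612882 to 90624181, both on the plus strand and 6837 bases apart. S100a10 and S100a11 lie further along the same chromosome, and the other 6 genes lie on 6 other chromosomes. The 250 bases before the RefSeq start (GRCm38.p6, in the direction of the gene) were found for 8 of the 10 genes. They are shown for S100a4 (chr3:90603520-90603769, plus strand) and S100a6 (chr3:90612644-90612893, plus strand), which were both more than 2-fold higher in Gzmb+ CD8+ T cells, and for Lgals3 (chr14:47373610-47373859, plus strand) and Anxa1 (chr19:20390672-20390921, minus strand), of whose UMIs a few cells with macrophage markers held a large share. Capitals mark matches, on either strand, to 4 motifs. These were the AP-1 site with the letters TGANTCA, the GC box with the letters GGGCGG, the CACCC box, whose letters are its name, and the T-box site with the letters GGTGTGA.
S100a4: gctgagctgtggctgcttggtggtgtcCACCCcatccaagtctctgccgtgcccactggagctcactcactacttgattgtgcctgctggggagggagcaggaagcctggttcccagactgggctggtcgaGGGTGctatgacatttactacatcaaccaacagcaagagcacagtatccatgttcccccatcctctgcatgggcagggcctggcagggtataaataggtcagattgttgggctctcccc
S100a6: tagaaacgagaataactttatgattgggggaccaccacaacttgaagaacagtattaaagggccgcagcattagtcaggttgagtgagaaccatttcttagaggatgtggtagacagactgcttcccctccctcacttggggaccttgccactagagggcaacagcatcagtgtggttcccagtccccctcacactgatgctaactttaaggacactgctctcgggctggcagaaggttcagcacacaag
Lgals3: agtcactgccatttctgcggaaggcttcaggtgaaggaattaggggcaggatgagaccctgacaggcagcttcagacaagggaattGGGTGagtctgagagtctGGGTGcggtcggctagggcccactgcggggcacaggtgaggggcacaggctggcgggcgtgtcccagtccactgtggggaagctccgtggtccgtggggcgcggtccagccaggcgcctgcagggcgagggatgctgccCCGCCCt
Anxa1: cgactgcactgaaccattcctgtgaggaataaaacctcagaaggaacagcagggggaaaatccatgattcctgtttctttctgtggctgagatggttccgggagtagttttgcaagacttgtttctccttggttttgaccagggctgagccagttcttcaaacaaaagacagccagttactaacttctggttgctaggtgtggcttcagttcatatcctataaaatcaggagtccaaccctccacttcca
S100a4 and S100a6 shared no motif in these windows, since S100a4 held 2 CACCC boxes and S100a6 none of the 4 motifs. Lgals3 held 1 GC box and 2 CACCC boxes, and Anxa1 held none. The AP-1 letters stood before 2 of the 8 genes, S100a11 with 2 matches and Anxa2 with 1, against 6.75% of 32851 promoters of the same length. GC boxes stood before 4 of the 8 genes, against 32.7% of all promoters, and CACCC boxes before 5, against 52.0%. The T-box letters stood before none of the 8, against 3.33%. In Anxa2 the AP-1 match overlapped a CACCC box. These counts describe letters in a window and nothing about binding.

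Of 14035 barcodes, 9078 passed the limits of 200 to 2500 detected genes and under 5% mitochondrial unique molecular identifiers (UMIs). By their own marker UMIs, 1260 were CD8+ T cells (Cd8a and Cd8b1 above Cd4 and Foxp3), 2609 were Treg cells (Foxp3, no CD8), 1769 were conventional CD4+ T cells (Tconv, Cd4 without Foxp3 or CD8) and 81 were Zbtb16+ cells, 21 of which were also Tconv. The median depth was 3462.5 UMIs in CD8+, 2780 in Treg, 2498 in Tconv and 2939 in Zbtb16+ cells. Levels are given as CPM (a gene's share of all mouse UMIs of the group, scaled to a sum of 1e6) with 95% exact Poisson intervals, and ratios with 95% exact intervals. Both cover counting error only, not the spread between mice. Fewer cells that express a gene and less RNA per cell cannot be told apart in a summed level.

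Treg cells had the highest level of 6 of the 10 genes, Lgals1, S100a4, S100a6, S100a10, Vim and Crip1. Lgals1 stood at 2265 CPM (2233 to 2298) in Treg cells, 2092 CPM (2052 to 2132) in CD8+, 1215 CPM (1185 to 1246) in Tconv and 693 CPM (599 to 799) in Zbtb16+ cells, with no overlap between neighbouring intervals. S100a6 followed the same order, at 2893, 1867, 1273 and 902 CPM, and Vim too, at 1818, 1036, 860 and 352 CPM. CD8+ T cells led for Lgals3, at 479 CPM (460 to 498), over Treg cells at 288 CPM (276 to 300), and Tconv and Zbtb16+ cells did not differ beyond counting error, at 208 CPM each. Anxa2 was at 474 CPM (455 to 493) in CD8+ and 453 CPM (438 to 467) in Treg cells, whose intervals overlapped, and at 251 CPM in Tconv. S100a11 was similar in Zbtb16+ (898 CPM, 790 to 1017) and Treg cells (877 CPM, 857 to 898). Anxa1 was scarce, between 11.9 CPM in Treg and 68.3 CPM in Zbtb16+ cells.

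Treg over Tconv, S100a6 (2.27-fold, 2.21 to 2.34) and Vim (2.11-fold, 2.04 to 2.19) were at least 2-fold higher, 2 of 10 against 4.4% of all genes with at least 50 UMIs. The median of the 10 was 1.60, and Anxa1 alone was lower (0.562-fold, 0.422 to 0.747, and 0.455-fold without cells of at least 3 macrophage marker UMIs). Vim was below 2-fold with no upper limit on detected genes (1.93-fold) and with CPM without ribosomal and mitochondrial genes (1.90-fold). CD8+ over Tconv, 1 of 10, Lgals3, was at least 2-fold higher (2.30-fold, 2.14 to 2.48), against 2.05% of all genes, and it was 3.25-fold (2.95 to 3.58) without the cells of at least 3 macrophage marker UMIs. The median of the 10 there was 1.20.

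**Figure D1:**
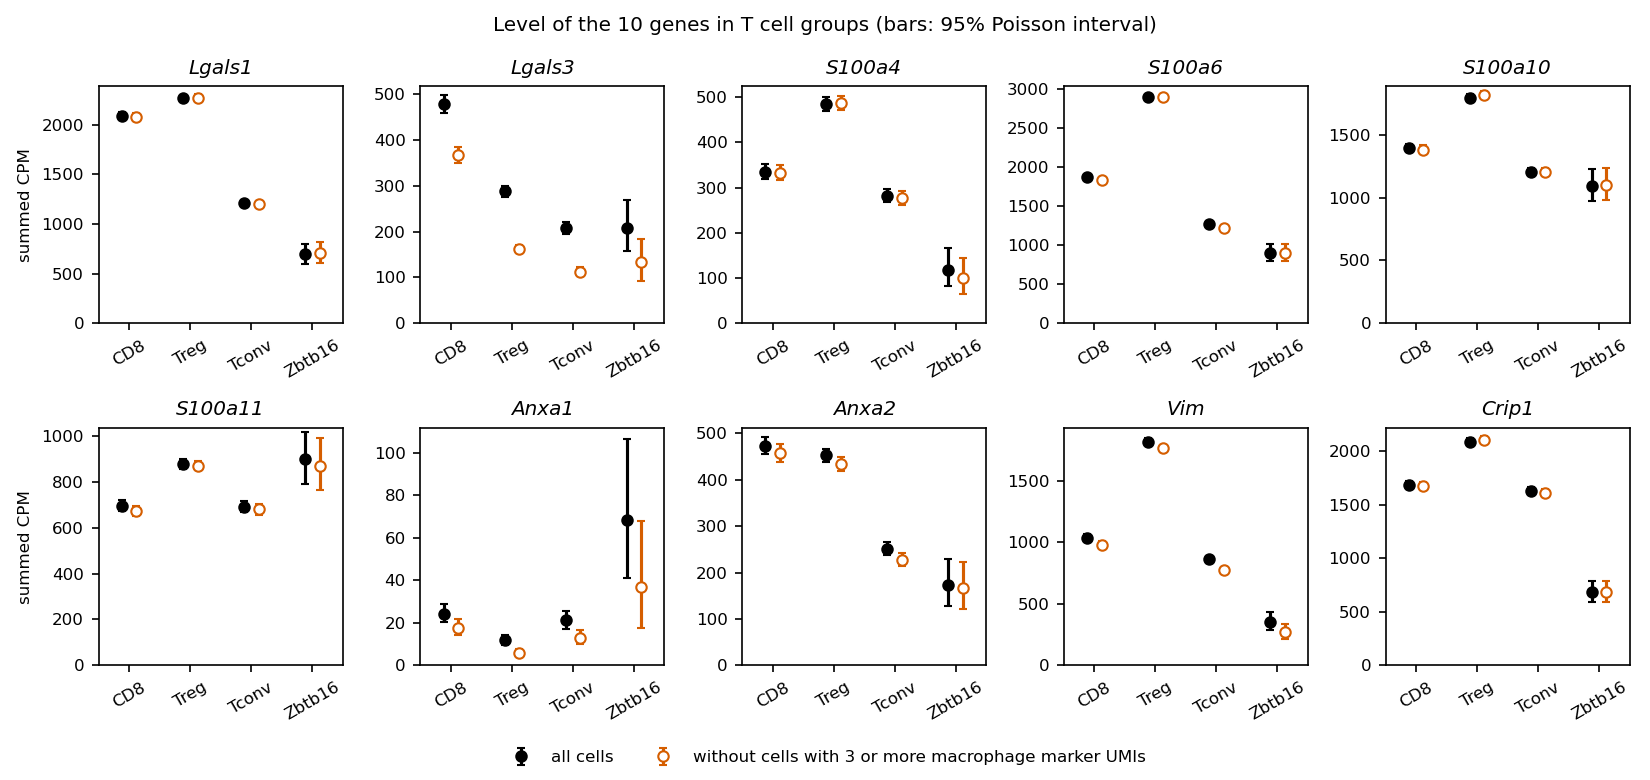
Summed CPM of each gene (vertical axes from 0, 1 panel a gene) in CD8+, Treg, Tconv and Zbtb16+ cells, with 95% Poisson intervals; filled points are all cells and open points leave out cells with at least 3 macrophage marker UMIs. Open and filled points nearly coincide for Lgals1, S100a6 and Crip1, while those of Lgals3 fall from 288 to 162 CPM in Treg and from 208 to 113 CPM in Tconv.

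Macrophage markers (Lyz2, C1qa, C1qb, C1qc, Apoe, Csf1r, Adgre1 and Cd68) were present in every lineage, at 211 to 262 CPM summed. A few cells carried much of this signal, since 44 of 1260 CD8+ (3.49%), 64 of 2609 Treg (2.45%) and 35 of 1769 Tconv (1.98%) cells had at least 3 such UMIs. These few cells held 26.6% of the Lgals3 UMIs of CD8+, 45.7% of those of Treg and 47.3% of those of Tconv cells. They held 30.1%, 52.0% and 40.6% of the Anxa1 UMIs. For Vim the shares were 9.5%, 6.4% and 12.6%. Macrophage-like barcodes, with at least 20 macrophage marker UMIs and no CD3 or TCR constant gene UMI, numbered 151. In them Lgals3 stood at 3799 CPM, Anxa1 at 275 CPM, Vim at 3844 CPM, Lgals1 at 2610 CPM and Anxa2 at 816 CPM. Each of these levels was above those of CD8+, Treg, Tconv and Zbtb16+ cells. S100a6, at 1354 CPM, was above Tconv and Zbtb16+ cells only, and S100a4, at 175 CPM, above Zbtb16+ cells only. Scaled to the macrophage markers in each lineage, the ratio of gene to marker UMIs in these barcodes would account for 23.1% of Lgals3 in CD8+, 35.8% in Treg and 51.5% in Tconv cells. It would account for 32.9%, 62.9% and 36.6% of Anxa1 in the same order, and for 12.6% of Vim and 9.16% of Anxa2 in Tconv cells. For the other 6 genes, Lgals1, S100a4, S100a6, S100a10, S100a11 and Crip1, it would account for at most 6.05% in those 3 lineages. The melanoma markers allowed at most 0.637% of any of the 10 levels in the groups compared. The main ratios of Lgals3 and Anxa1 are therefore also given without the cells that had at least 3 macrophage marker UMIs, a limit chosen after the data were seen; whether these barcodes are doublets, free RNA or T cells with these transcripts was not tested.

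In CD8+ T cells, 668 cells with a UMI of Gzmb, the cytotoxic granule protease granzyme B, were compared with 592 without. The upper limit on detected genes took out more of the Gzmb+ group, since without it the groups held 908 and 630 cells. Lgals1 stood at 2778 CPM in Gzmb+ and 1111 CPM in Gzmb- cells (2.50-fold, 2.39 to 2.62). Among the S100 genes, S100a4 stood at 449 against 172 CPM (2.61-fold, 2.32 to 2.94) and S100a6 at 2415 against 1084 CPM (2.23-fold, 2.12 to 2.34, and 1.97-fold in cells thinned to 1500 UMIs), while S100a10 (1.48-fold) and S100a11 (1.47-fold) differed less. These 3 of 10 genes were at least 2-fold higher, against 2.42% of all genes, and the median of the 10 was 1.55. Anxa2 was 1.66-fold, Vim 1.62-fold and Crip1 1.36-fold higher, each with an interval above 1. Lgals3 stood at 547 against 381 CPM (1.44-fold, 1.32 to 1.56), and Anxa1 did not differ beyond counting error (1.35-fold, 0.919 to 2.01).

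The macrophage marker sum was higher in the Gzmb- cells, at 420 CPM, than in the Gzmb+ cells, at 90.5 CPM. There 25 of the 592 Gzmb- cells held 57.0% of that group's Lgals3 UMIs and 64.3% of its Anxa1 UMIs. Without cells of at least 3 macrophage marker UMIs, Lgals3 stood at 498 against 174 CPM (2.87-fold, 2.55 to 3.24) and Anxa1 at 24.6 against 7.64 CPM (3.23-fold, 1.83 to 6.06). The count of genes at least 2-fold higher was then 5 of 10, against 2.84% of all genes, while Lgals1 (2.68-fold), S100a4 (2.79-fold) and S100a6 (2.44-fold) changed little. Leaving out cells with a cycling marker UMI kept Lgals1 at 2.70-fold and S100a6 at 2.50-fold.

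Treg cells also carry granzyme B, and 1551 of 2609 had a Gzmb UMI. No gene of the 10 was at least 2-fold higher in them, against 0.597% of all genes. Anxa2 (1.61-fold), Lgals1 (1.51-fold, 1.46 to 1.56), S100a6 (1.51-fold, 1.47 to 1.55), Vim (1.46-fold) and S100a4 (1.37-fold) were higher, and S100a10 and S100a11 were both at 1.03-fold. Lgals3 ran the other way, at 237 CPM in Gzmb+ and 375 CPM in Gzmb- Treg cells (0.631-fold, 0.582 to 0.685), as did Anxa1 (0.608-fold, 0.401 to 0.923). Here too the macrophage marker sum was higher in Gzmb- cells, 359 against 124 CPM. Without the cells of at least 3 such UMIs, 36 of them Gzmb-, Lgals3 turned to 180 against 131 CPM (1.38-fold, 1.22 to 1.55), and Anxa1 to 1.11-fold (0.587 to 2.17). Those 36 cells held 66.8% of the Lgals3 UMIs of Gzmb- Treg cells.

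In Tconv, 483 cells had a Gzmb UMI and 1286 had none. S100a6 was 2.17-fold higher (2.06 to 2.28), the only 1 of 10 at least 2-fold higher, against 2.96% of all genes, and it was 1.95-fold with CPM without ribosomal and mitochondrial genes. Vim (1.90-fold), Anxa2 (1.78-fold), Lgals1 (1.76-fold) and S100a4 (1.75-fold) came next. Over all alternatives run the Vim ratio lay between 1.55-fold and 2.30-fold. The median of the 10 was 1.75, and 1.57 without cells of at least 3 macrophage marker UMIs. Lgals3 was 1.75-fold higher (1.54 to 1.98), and 1.35-fold (1.12 to 1.61) without macrophage marker cells, whose markers were here higher in the Gzmb+ cells, 314 against 182 CPM.

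**Figure D2:**
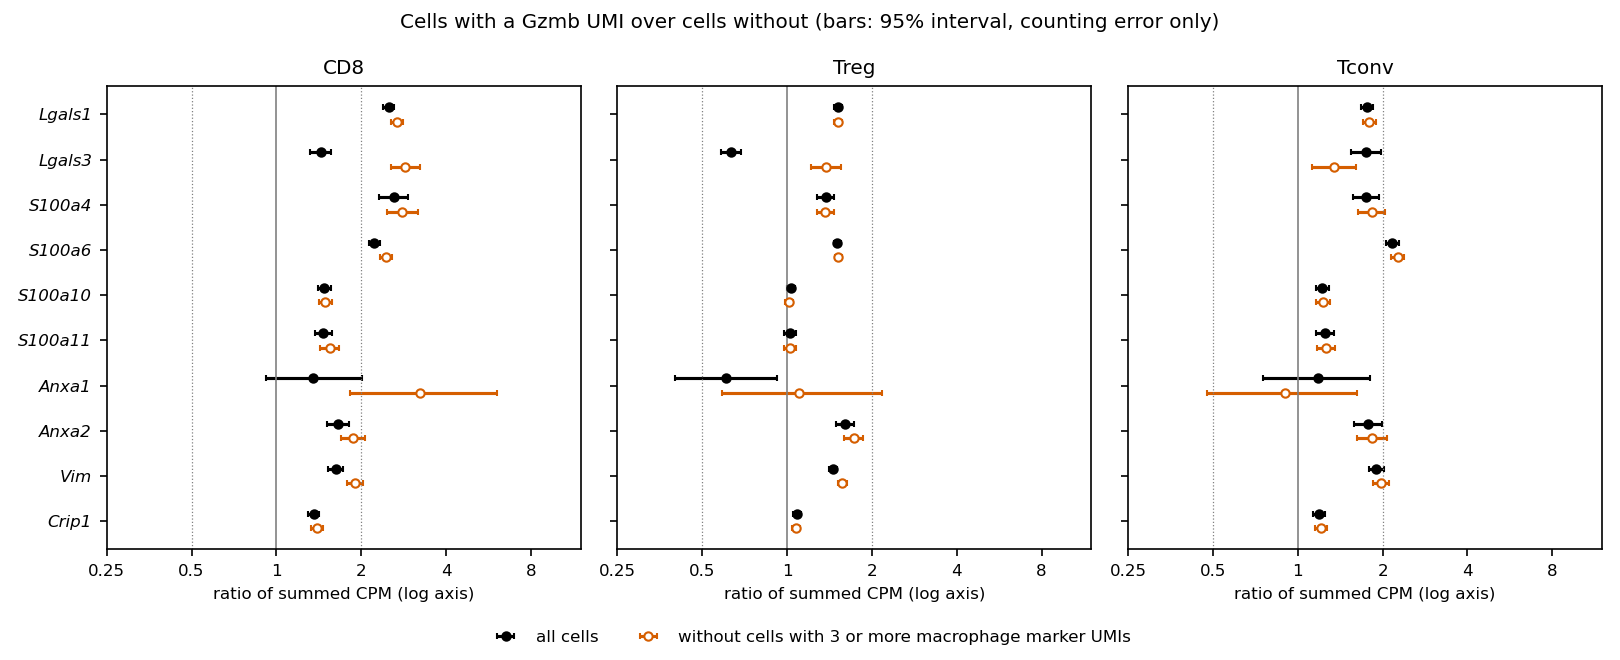
Ratio of summed CPM in cells with a Gzmb UMI over cells without (log axis, 95% intervals) for the 10 genes in CD8+, Treg and Tconv cells; filled points are all cells, open points leave out cells with at least 3 macrophage marker UMIs, and dotted lines mark 2-fold. In Treg cells the Lgals3 point lies at 0.631 with all cells and at 1.38 without them, and in CD8+ T cells it moves from 1.44 to 2.87.

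A deep cell is more likely to show a Gzmb UMI, so cells were also thinned to 1500 UMIs each, which left out 109 CD8+, 454 Treg and 322 Tconv cells. At equal depth, Lgals1 in CD8+ T cells stood at 1164 CPM with 0 Gzmb UMIs, 2196 CPM with 1 and 2712 CPM with 2 or more. S100a6 stood at 1277, 2124 and 2734 CPM, and neither gene's intervals overlapped between steps. In Treg cells Lgals1 went from 1784 to 2181 and 2679 CPM, and S100a6 from 2241 to 3166 and 3553 CPM. In Tconv, Lgals1 went from 968 to 1353 and 2150 CPM. In these 3 lineages both genes had their lowest level in cells with no Gzmb UMI. The summed level of CD8+ Lgals3 was alike at 0 and 1 Gzmb UMIs (351 and 365 CPM) and stood at 587 CPM at 2 or more. The share of cells with an Lgals3 UMI was 23.3%, 30.5% and 47.4% in the same order. Cells with at least 3 macrophage marker UMIs were kept in these steps. The median number of the 10 genes detected per thinned cell was 4 in CD8+ T cells without a Gzmb UMI and 6 in those with 2 or more. In Tconv it was 4, 5 and 6 over the steps. In Treg cells the median was 6 at every step, while the mean was 5.51, 6.02 and 6.27.

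**Figure D3:**
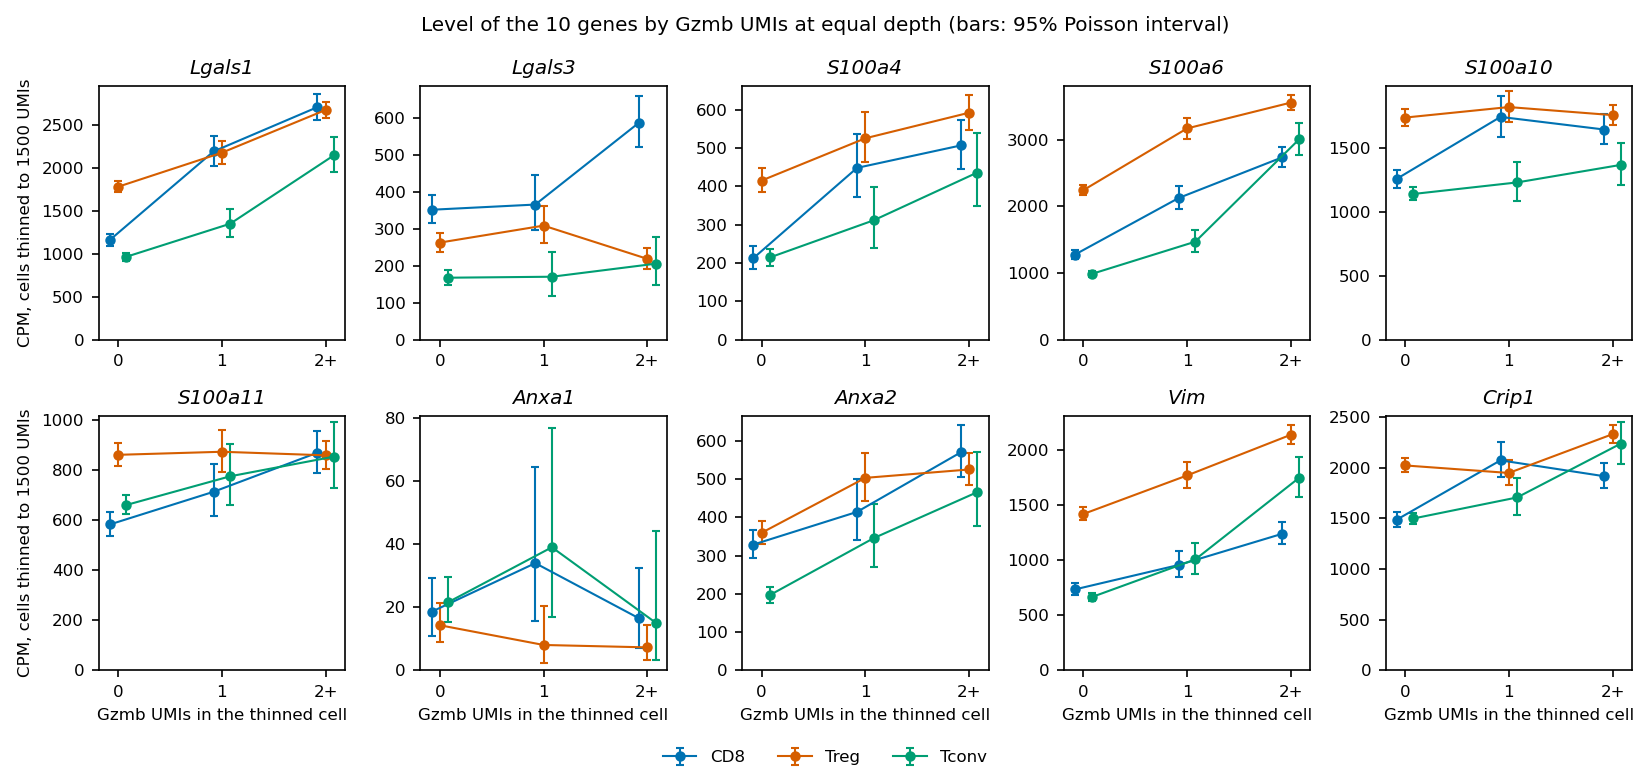
Level of each gene (CPM in cells thinned to 1500 UMIs, axes from 0, 95% Poisson intervals) by the Gzmb UMIs left in the thinned cell, for CD8+, Treg and Tconv cells. Lgals1, S100a6 and Vim step upward in each of the 3 lineages, with CD8+ Lgals1 at 1164, 2196 and 2712 CPM. Lgals3 in Treg cells lies at 263 (238 to 289), 308 and 219 CPM (192 to 248), so its first and last intervals overlap. Cells with macrophage marker UMIs are kept.

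Clone size, taken from the deposited clonotypes, was available for 921 CD8+ T cells, 200 of them in 73 clones of at least 2 cells. Lgals3 was the 1 gene of 10 at least 2-fold higher in expanded over single cells, against 0.828% of all genes. It stood at 343 CPM in single cells, 683 CPM in clones of 2 and 802 CPM in clones of 3 or more, and the ratio was 2.17-fold (1.97 to 2.38). With no upper limit on detected genes (302 expanded and 869 single cells) it was 1.57-fold. None of the 10 was then at least 2-fold higher, against 0.464% of all genes. With the limit kept, the Lgals3 ratio also had the following values. Lgals3 was 2.30-fold higher (2.07 to 2.56) without macrophage marker cells, although the macrophage sum was higher in expanded (307 CPM) than in single cells (89.3 CPM). S100a4 stepped up from 298 to 388 and 607 CPM with clone size, and S100a6 from 1637 to 2466 and 2825 CPM. Crip1 hardly differed (1.11-fold, 1.05 to 1.17).

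Clone size was also read within Gzmb+ and Gzmb- cells, and Gzmb within single and expanded cells. Gzmb+ over Gzmb- gave 2.70-fold for Lgals1 (2.54 to 2.86) in single and 1.46-fold (1.32 to 1.61) in expanded cells, and 2.17-fold and 1.17-fold (0.976 to 1.41) for Lgals3. The macrophage sums of the expanded cells were 104 CPM in Gzmb+ and 967 CPM in Gzmb- cells. The 1.17-fold for Lgals3 is of all cells and is not given without macrophage marker cells, so it does not show equal levels. Within Gzmb+ cells, expanded over single cells gave 1.71-fold for Lgals3 (1.53 to 1.91), 1.29-fold for S100a6 and 1.18-fold for Lgals1. Within Gzmb- cells the ratios were larger, at 3.16-fold for Lgals3 (2.58 to 3.86), 2.65-fold for S100a4 (2.01 to 3.48) and 2.18-fold for Lgals1 (1.96 to 2.41). Only 49 expanded cells were Gzmb-, and their macrophage sum was 967 CPM against 113 CPM in the single Gzmb- cells. Without macrophage marker cells Lgals3 there stood at 372 against 124 CPM and S100a4 2.95-fold (2.21 to 3.90). The difference between Gzmb+ and Gzmb- cells in these ratios was not tested. The 6 CD8+ clones of at least 5 cells ranged from 2124 to 3415 CPM for Lgals1 and from 271 to 1201 CPM for Lgals3.

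In Treg cells, 98 expanded and 1607 single cells were compared, and none of the 9 genes with enough UMIs was at least 2-fold higher, against 2.14% of all genes. Anxa2 had the largest ratio among those 9 (1.45-fold, 1.26 to 1.66). In Tconv, 3 of 10 genes were at least 2-fold higher in 63 expanded over 1117 single cells, against 3.8% of all genes, namely Lgals3 (5.27-fold, 4.38 to 6.32), Anxa1 (3.24-fold, 1.53 to 6.26) and Vim (2.12-fold, 1.90 to 2.36). The 711 CPM of Lgals3 in expanded Tconv rested largely on 5 of the 63 cells with at least 3 macrophage marker UMIs. Without such cells Lgals3 was 221 against 104 CPM (2.12-fold) and Vim 1.55-fold, and Anxa1 rested on 8 UMIs in the expanded cells. Over all alternatives run the Vim ratio lay between 1.06-fold, without cells holding markers of other types, and 3.28-fold, with clones of at least 3 cells.

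**Figure D4:**
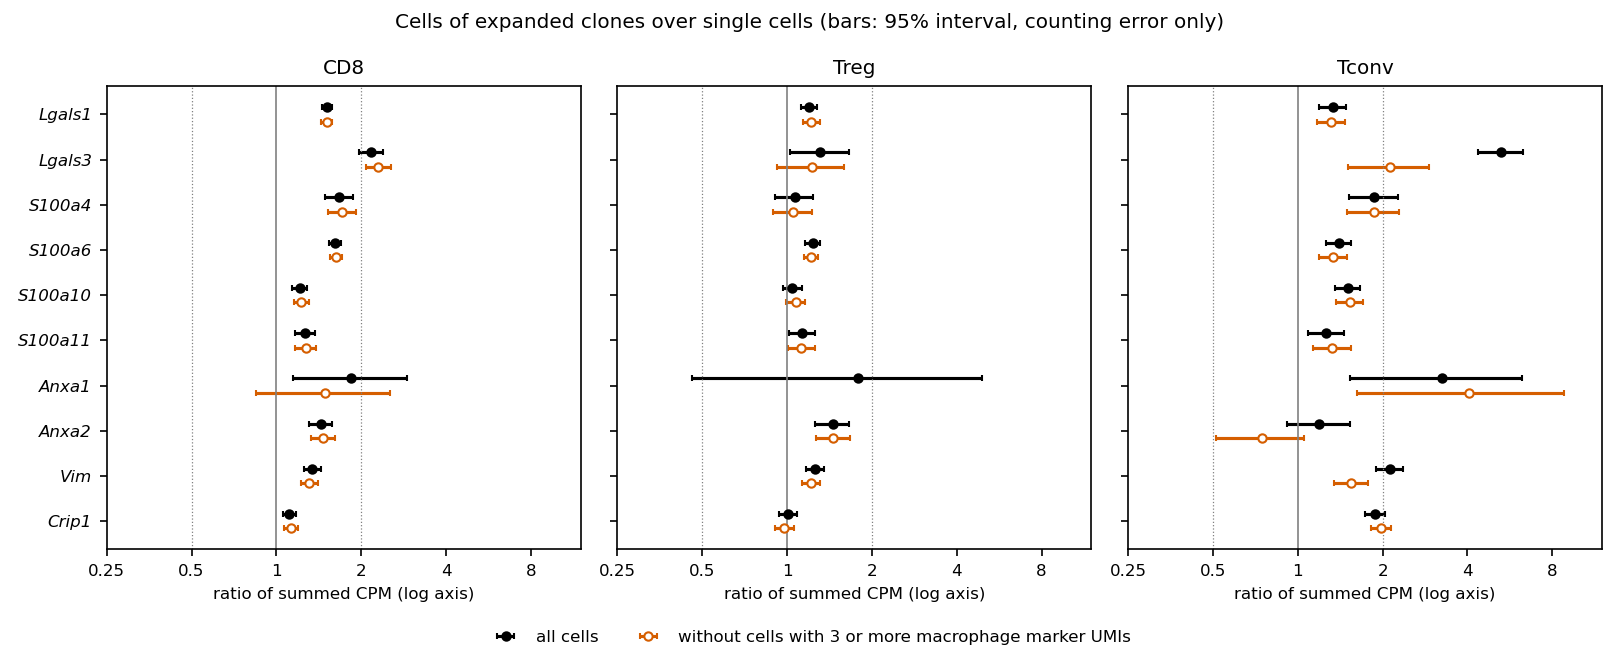
Ratios of summed CPM in cells of expanded clones over single cells (log axis, 95% intervals) for the 10 genes in CD8+, Treg and Tconv cells; filled points are all cells, open points leave out cells with at least 3 macrophage marker UMIs, and the open Anxa1 point of Treg cells is not drawn because the expanded cells then held 0 UMIs. Lgals3 of expanded Tconv moves from 5.27 to 2.12, and Lgals3 of expanded CD8+ T cells lies at 2.17 with all cells and at 2.30 without them.

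Il1rl1 encodes the receptor for IL-33, and 504 Treg cells had a UMI of it. None of the 10 genes was at least 2-fold higher in them than in the 2105 other Treg cells, against 0.788% of all genes. Crip1 was the highest, at 2570 against 1969 CPM (1.31-fold, 1.26 to 1.35), followed by S100a4 (1.17-fold, 1.09 to 1.26) and S100a6 (1.08-fold, 1.05 to 1.12). Anxa2 was lower, at 298 against 491 CPM (0.607-fold, 0.551 to 0.668), and 0.614-fold without macrophage marker cells. Lgals3 (0.695-fold) and Anxa1 (0.409-fold), the 1 gene at least 2-fold lower against 2.43% of all genes, were lower too, but stood at 1.06-fold (0.927 to 1.22) and 0.940-fold (0.400 to 1.98) without those cells, which made up 7 of the 504 and 57 of the 2105.

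The tumor of origin could be read for few cells. The hashtag library held 1730 tag UMIs against 22837655 that matched no tag, and of 939 tagged cells 849 (90.4%) rested on 1 tag UMI. In CD8+ T cells, 19 cells tagged B16–IL-33 and 103 tagged B16 were compared, and none of 9 genes was at least 2-fold higher, against 1.38% of all genes. Anxa2 (1.86-fold, 1.32 to 2.57), S100a4 (1.75-fold, 1.19 to 2.51), Lgals1 (1.73-fold, 1.49 to 1.99) and S100a6 (1.65-fold, 1.41 to 1.92) were higher. With no upper limit on detected genes (21 and 142 cells) Anxa2 turned to 0.785-fold, Vim from 1.35-fold to 0.882-fold and Lgals3 from 1.39-fold to 0.694-fold, Lgals1 was 1.15-fold, and the median of the 9 went from 1.39 to 0.959. In Treg cells (55 and 245 cells), 1 of 9 genes, Lgals3, was at least 2-fold higher, against 2.58% of all genes (2.01-fold, 1.69 to 2.38), and in Tconv (17 and 164 cells) 1 of 9, again Lgals3, against 3.34% (3.18-fold, 1.57 to 6.05). Without macrophage marker cells the Tconv ratio was 1.16-fold (0.131 to 4.80) on 2 UMIs in the cells tagged B16–IL-33, and the CD8+ ratio of Lgals3 was 1.88-fold (1.20 to 2.88).

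The tags of each tumor disagreed about Lgals3. In Treg cells it stood at 1024 CPM under tag B16_1, 146 CPM under B16_2, 119 CPM under B16IL33_1 and 1421 CPM under B16IL33_2. The high and low values thus occurred in both tumors, and the macrophage sums of those tags were 1650, 137, 19.9 and 527 CPM in the same order. In tag B16_1, 7 of 80 Treg cells held 88.6% of the Lgals3 UMIs. Lgals1 was closer across the tags, at 2266, 2552, 2111 and 2116 CPM. Without macrophage marker cells Lgals3 in Treg cells was 110 CPM in B16 and 232 CPM in B16–IL-33 (2.11-fold, 1.41 to 3.11), on 38 UMIs in the latter. With the tags numbered 1 alone the ratio of all cells was 0.117 in Treg and 0.264 in Tconv, the opposite direction. No statement about an effect of IL-33 on these genes rests on these cells.

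The Zbtb16+ cells were selected on the transcription factor PLZF of innate-like T cells. Of the 27 with a TCR α chain, 16 carried the invariant chain of NKT cells, so the label NKT holds for part of them. Against the other 1748 Tconv, 1 of 10 genes was at least 2-fold higher, Anxa1 (3.27-fold, 1.89 to 5.37, on 19 UMIs), against 3.35% of all genes, and 3 were at least 2-fold lower, against 12.75%. Those were Vim (352 against 871 CPM, 0.404-fold), S100a4 (119 against 286 CPM, 0.414-fold) and Crip1 (683 against 1646 CPM, 0.415-fold). S100a11 was the other gene with a higher level (1.31-fold, 1.14 to 1.48). The 16 cells with the invariant chain held 1 of the 19 Anxa1 UMIs (16.4 CPM, 0.414 to 91.1), against 20.9 CPM in the other Tconv. The 11 cells with another α chain held 2 (51.0 CPM, 6.17 to 184). Most Anxa1 UMIs thus came from Zbtb16+ cells in which no α chain was read. Of the 19 Anxa1 UMIs, 47.4% came from 1 cell with at least 3 macrophage marker UMIs, and the ratio without such cells was 2.94-fold (1.34 to 5.80). It was 1.91-fold with no upper limit on detected genes and 1.88-fold in cells thinned to 1500 UMIs.

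Across thinned cells, the 45 pairs of the 10 genes had a median Pearson's r of 0.24 in CD8+ (1151 cells), 0.17 in Treg (2155 cells) and 0.24 in Tconv (1447 cells), given as a description since the cells share 1 library. Lgals1 with S100a6 was the closest pair in CD8+ (0.47) and Treg cells (0.37), and S100a6 with Vim in Tconv (0.44). The nearby genes S100a4 and S100a6 stood at 0.39 in CD8+ T cells. Of the proteins known to pair, S100a10 and Anxa2 were seen together in 343 of the 877 thinned CD8+ T cells with S100a10 (39.1%). That is near the 37.2% of all 1151 thinned CD8+ T cells that had Anxa2, and the r of this pair was 0.077. Anxa1 correlated with no member above 0.28, and its highest was Lgals3, at 0.25 in CD8+, 0.28 in Treg and 0.24 in Tconv cells. Without macrophage marker cells that pair fell to 0.12, 0.015 and 0.058.

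**Figure D5:**
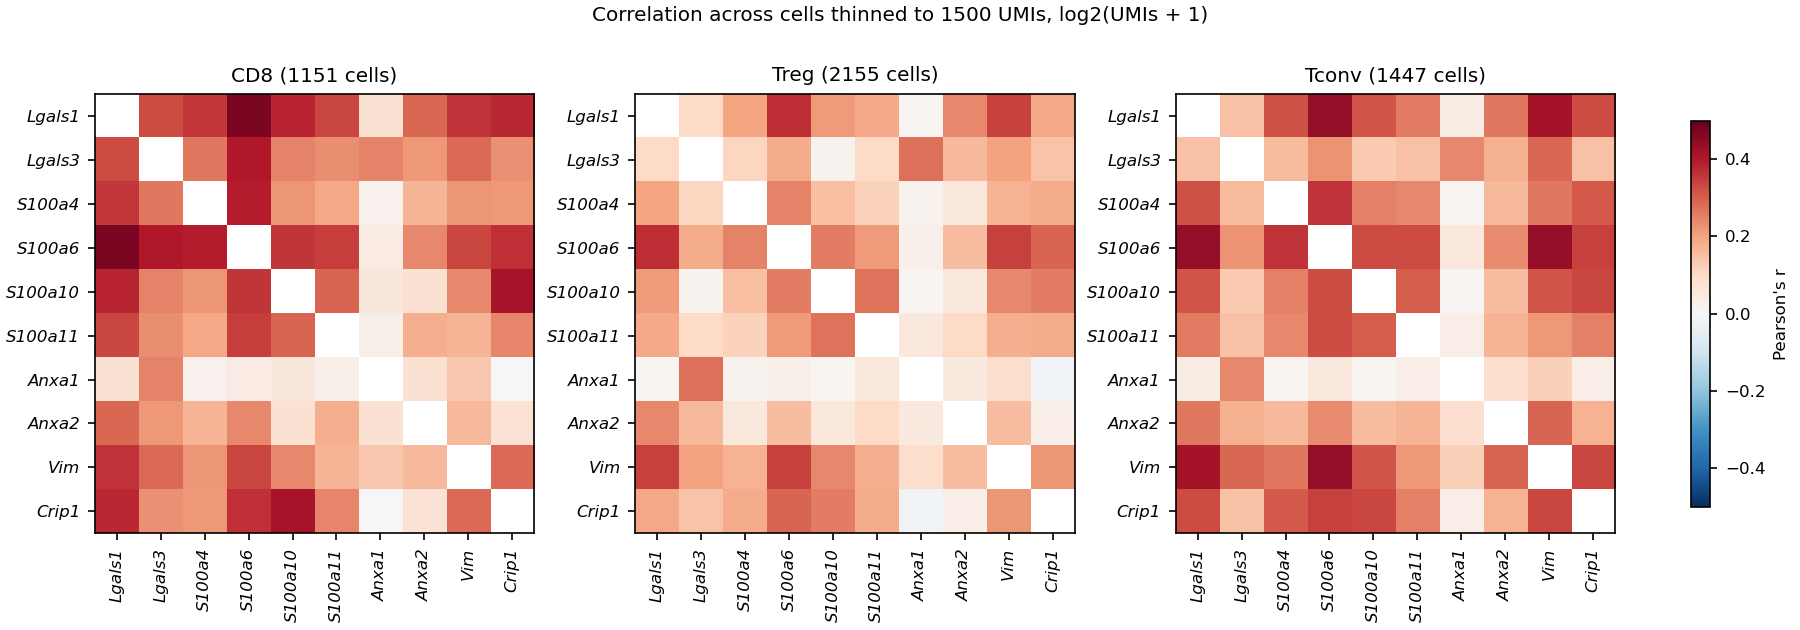
Pearson's r between the 10 genes (rows and columns; colour scale from -0.5 to 0.5) across CD8+, Treg and Tconv cells thinned to 1500 UMIs, on log2(UMIs + 1). The block of Lgals1, S100a6, S100a10, Vim and Crip1 is darkest in CD8+ and Tconv, with Lgals1 and S100a6 at 0.47 in CD8+, and the Anxa1 row is pale except where it meets Lgals3.

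Among genes outside the 10 with at least 200 UMIs in the lineage, the highest correlations to the summed 10 were as follows. In CD8+ T cells Tmsb4x (0.54), Actg1 (0.49) and Actb (0.44), which encode thymosin β4 and the cytoplasmic actins, led 2825 ranked genes, with Nkg7 (0.37) and Gzmb (0.36) among the first 10. In Treg cells Tmsb4x (0.34), Capg (0.31), an actin capping protein, and Actg1 (0.30) led. In Tconv Actg1 (0.46), Actb (0.45) and Sh3bgrl3 (0.36) led. At the other end stood ribosomal protein genes, with Rps24 at -0.49 in CD8+ and Tconv, and in Treg cells Tcf7 (-0.30), a factor of naive and stem-like T cells. Equal UMI totals per cell tie these values to each other.

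Other genes of the families were also compared by Gzmb in CD8+ T cells. Of all genes there, 2.42% were at least 2-fold higher and 1.75% at least 2-fold lower. Of 9 other genes listed with the galectins 3 had at least 50 UMIs, and none was 2-fold higher or lower. Lgals9 was at 0.998-fold, and Lgals3bp, which encodes a galectin-binding protein and not a galectin, at 1.02-fold. Of 10 other annexins 5 were measured and none passed, with a median of 1.58 (Anxa6 1.58-fold, Anxa7 1.61-fold, Anxa5 0.806-fold). Of 12 other S100 genes 3 were measured. S100a13 was 1.58-fold higher, while S100a8 and S100a9, the calprotectin genes of neutrophils, were at least 2-fold lower, and the neutrophil marker sum, which includes both genes, was 101 CPM in Gzmb- cells. Of 26 partner and receptor genes 19 were measured and 2 were at least 2-fold higher, against 2.42% of all genes. Those were the checkpoint receptors Havcr2 (4.96-fold, 3.47 to 7.28), whose protein TIM-3 binds galectin-9, and Lag3 (2.71-fold, 2.29 to 3.22). Cd7, encoding a glycoprotein bound by galectin-1, was lower (0.448-fold, 0.392 to 0.512). Plgrkt (1.39-fold) and Ahnak (1.28-fold), partners of the S100A10 and annexin A2 pair, were between. In Treg over Tconv, 4 of 21 measured partners were at least 2-fold higher, against 4.4% of all genes. Those were Capg (2.69-fold), Lag3 (2.63-fold), Havcr2 (2.45-fold) and Lmna (2.27-fold). Itgb1 was at least 2-fold lower (0.439-fold, 0.406 to 0.474), against 2.08% of all genes. Of the 5 other annexins measured only Anxa4 was at least 2-fold higher there (2.12-fold, 1.62 to 2.80).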

How the data were processed

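Expression values were deposited as whole UMI counts that the authors made with Cell Ranger (3.1.0 in the file header, 6.1.1 in the submitters' processing notes) from 5′ reads on a combined human and mouse (mm10) reference. Hashtag and TCR contig values were also deposited as counts. Barcodes with 200 to 2500 genes and under 5% mitochondrial UMIs were kept, 26606999 mouse UMIs in 9078 cells. Of the barcodes, 11756 were shared with the hashtag and 6665 with the TCR files. Cells were grouped by UMIs of Cd8a, Cd8b1, Cd4, Foxp3 and Zbtb16, a tumor was given where all tag UMIs came from 1 tumor, and clones of at least 2 cells were called expanded. UMIs were summed per group as CPM, genes with at least 50 UMIs were compared, and 2-fold was the limit (Python 3.11.15, SciPy 1.17.1). The intervals were run on counts simulated from the same counting model, which cannot show how they cover UMIs clustered in few cells. No doublet caller was run, so 428 cells with at least 2 productive β chains were left out as an alternative. The members and lists were chosen with earlier results of these data known, and the text names the 10 genes, list genes with at least 200 UMIs in the lineage, and the 10 other genes most correlated with the summed members, plus S100a8, S100a9, Rps24 and Tcf7, named after their values were seen. The comparisons of Treg and Tconv by Gzmb, the splits of Gzmb within clone size and the limit of 3 macrophage marker UMIs were added after the data were seen. Promoters came from RefSeq (GRCm38.p6). One planned split of the cells is not reported here.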

Additional observations from a re-analysis of the deposited data

Results flagged for a closer look

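Several sets of ratios ran in opposite directions in different lineages. Chance was not assessed and none of these differences was tested, since the pool gave 1 library. Lgals3 was higher in Gzmb+ than Gzmb- cells of CD8+ (1.44-fold) and Tconv cells (1.75-fold) and lower in Treg cells (0.631-fold), and the Treg value was 1.38-fold without cells of at least 3 macrophage marker UMIs. Lgals1 was higher in cells tagged B16–IL-33 than B16 in CD8+ T cells (1.73-fold) and lower in Treg cells (0.859-fold). Anxa2 had ratios of 1.86 and 0.738 in the same order, and Vim of 1.35 and 0.760. With no upper limit on detected genes the CD8+ ratios of Anxa2 and Vim were 0.785 and 0.882, so that both lineages lay below 1. These tumor comparisons used 19 CD8+ and 55 Treg cells tagged B16–IL-33.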

How the results depend on the processing

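Of the counts of genes at least 2-fold higher under an alternative setting, 125 stayed within 1.5 times of the reported count and 50 moved. Of 130 ratios 101 had an interval that left out 1, of which 86 kept their direction under every alternative run and 15 turned under at least 1. The counts that moved were as follows, and the cause was not tested except where the setting itself changes the limit or the cells. With a 1.5-fold limit the counts were 5 for CD8+ by Gzmb, 5 by clone size and 4 by tumor, 3 for Treg by Gzmb, 6 for Tconv by Gzmb and 6 by clone size, 3 for CD8+ over Tconv and 5 for Treg over Tconv. The shares of all genes at 1.5-fold were 8.78%, 5.70% and 9.16% in those CD8+ splits and 3.94% for Treg by Gzmb. They were 10.3% and 12.8% in the Tconv splits, 5.17% for CD8+ over Tconv and 12.6% for Treg over Tconv. With CPM without ribosomal and mitochondrial genes they were 0 for Tconv by Gzmb, 0 for Treg by tumor and 1 for Treg over Tconv. With at least 2 Gzmb UMIs against none Tconv gave 5. With at least 200 UMIs per gene Tconv by tumor and Zbtb16+ over Tconv gave 0. With clones by β chain CDR3 Tconv by clone size gave 1, and with expanded clones of at least 3 cells CD8+ gave 2 and Tconv 5. In cells thinned to 1500 UMIs the counts were 0 for Tconv and Treg by tumor and for Zbtb16+ cells, 1 for CD8+ by tumor, 2 for CD8+ by clone size and 3 for Tconv by Gzmb. Treg by tumor gave 0 with the mean of each cell's CPM and with a 10% mitochondrial limit, and with no UMI minimum Treg and Tconv by tumor gave 2. The shares of all genes with no UMI minimum were 11.8% for Treg and 16.9% for Tconv by tumor. With no upper gene limit the counts were 0 for Tconv and Treg by tumor, CD8+ by clone size and Zbtb16+ cells, 1 for Treg over Tconv and 3 for CD8+ over Tconv. Dividing by the median ratio gave 1 for Treg over Tconv and 2 for CD8+ over Tconv. With tags numbered 1 alone Treg and Tconv by tumor gave 0 and CD8+ by tumor 1, and Lgals3 reversed to 0.117 in Treg and 0.264 in Tconv. Without cells holding markers of other types the counts were 0 for Tconv and Treg by tumor, 1 for Tconv by clone size, 4 for CD8+ by tumor and 6 for CD8+ by Gzmb. Without cells of at least 2 β chains Treg by tumor gave 0 and CD8+ by clone size 2. Without cells of at least 3 macrophage marker UMIs, added after the data were seen, the counts were 0 for Tconv by tumor, 1 for CD8+ by tumor, 1 for Tconv by clone size, 2 for CD8+ over Tconv and 5 for CD8+ by Gzmb. Apart from the 1.5-fold limit and no UMI minimum, the share of all genes beside a moved count lay between 0.464% and 7.80%. No paired analysis was possible because the pool gave 1 library. With 1 library, no replicate could be left out, and the intervals cover counting error only. Anxa1, with 98 to 123 UMIs in CD8+, Treg and Tconv cells, was limited most by depth.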
